A study of Rattus norvegicus with 4 samples.

Results

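The Fos, Jun and Egr genes encode transcription factors that cells switch on early after a stimulus. The 10 rat genes described here are Fos, Fosb, Fosl1, Fosl2, Jun, Junb, Jund, Egr1, Egr2 and Egr3. They were found through the RefSeq accession of each array probe, which gave 15 probes out of 45598 and 10 genes out of 16581 that could be named. Every sample was NR8383, a macrophage cell line from the lung lavage of a normal rat. The cells were given the NH2-functionalized carbon nanotube NRCWE049 at 1.2 cm²/cm² over 4 h. The labels place the cells after 20 passages, give a culture time of 48 h and describe cultures of both adherent and floating cells. Total RNA of 4 replicates, which the series describes as biological, was hybridised to one-colour Agilent arrays. Unexposed control arrays were not analysed here, so the values below describe exposed cells and show how far replicates of 1 condition differed. They cannot show which genes the nanotubes changed.

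FOS and JUN proteins pair through a leucine zipper to form the AP-1 transcription factors, in which FOS proteins need a JUN partner and JUN proteins can also pair with each other. EGR proteins bind GC-rich sites through zinc fingers. In macrophages both groups are known for fast and short-lived induction by bacterial products, growth factors and particle uptake, through MAP kinases that act on factors already present on their promoters.

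The promoters of Egr1 and Egr2, whose levels spread widest between replicates under the setting used here, and of Jund, whose levels spread least under it, are shown first. Any link between these sequences and the spread was not tested. The sequences run from 250 bases before to 50 bases after the gene start, are RefSeq sequences of the GRCr8 assembly, and are written 5′ to 3′ on the strand of the gene. Capitals mark the CArG box bound by serum response factor, the short core of the cAMP response element (CGTCA or TGACG), its full form TGACGTCA, and the EGR site (GCGTGGGCG or GCGGGGGCG).
Egr1 (chr18:26736828-26737127, plus strand): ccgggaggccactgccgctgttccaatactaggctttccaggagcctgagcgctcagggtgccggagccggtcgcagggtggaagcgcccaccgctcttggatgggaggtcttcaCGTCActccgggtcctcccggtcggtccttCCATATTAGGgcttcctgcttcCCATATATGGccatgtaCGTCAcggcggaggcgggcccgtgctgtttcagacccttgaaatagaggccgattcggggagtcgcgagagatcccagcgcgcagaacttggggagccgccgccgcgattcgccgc
Egr2 (chr20:21054392-21054691, minus strand): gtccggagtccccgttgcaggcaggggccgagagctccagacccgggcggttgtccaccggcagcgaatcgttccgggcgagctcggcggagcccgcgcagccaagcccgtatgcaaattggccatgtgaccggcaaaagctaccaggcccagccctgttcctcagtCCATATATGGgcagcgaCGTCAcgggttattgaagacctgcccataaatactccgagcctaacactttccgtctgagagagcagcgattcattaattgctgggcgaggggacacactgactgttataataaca
Jund (chr16:18769722-18770021, minus strand): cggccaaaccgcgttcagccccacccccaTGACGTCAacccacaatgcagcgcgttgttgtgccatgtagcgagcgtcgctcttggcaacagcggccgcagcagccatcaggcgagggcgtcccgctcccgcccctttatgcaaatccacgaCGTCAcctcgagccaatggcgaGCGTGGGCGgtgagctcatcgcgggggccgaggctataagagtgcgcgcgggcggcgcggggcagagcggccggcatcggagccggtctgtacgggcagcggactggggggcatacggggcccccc

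Both strands were searched, and a full cAMP response element contains the short core. Of the 10 genes, 7 had an entry of 300 bases in the promoter table: Fosb, Fosl1, Fosl2, Junb, Jund, Egr1 and Egr2. A CArG box was present in 2 of them, Egr1 and Egr2, and in 1.64% of 33469 rat promoters of this length. Egr1 held 2 such boxes, and 0.0209% of promoters held at least 2. The box CCATATATGG lay at positions -83 to -74 from the gene start in both Egr1 and Egr2, followed in both by a CGTCA core at positions -66 to -62. The short core was present in 5 of the 7 promoters against 21.2% of all promoters, the full TGACGTCA in Jund alone against 1.83%, and an EGR site in Fosl2 and Jund against 3.2%. The AP-1 site (TGACTCA or TGAGTCA) was in none of the 7 windows and in 4.63% of all promoters. These matches describe letters and not binding.

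Of the 10 genes, 8 were detected, meaning that at least 1 probe was flagged as well above background on all 4 arrays. The share of all named genes that met this rule was 52.5%, and 42% were not well above background anywhere. The undetected members were Fosl1 and Egr3. No spot was flagged as saturated, apart from control spots, which were not checked. Signals are Agilent's background-corrected processed intensities with the error the files give for the spot. A level is the log2 of the signal less that of a scaling value, the 75th percentile over probes detected on all arrays, which stood at 1970, 1980, 2493 and 2403 in replicates 1 to 4. Levels are not compared between genes. The number of arrays limits the precision.

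All 10 macrophage markers were detected, including Cd68, Csf1r and Spi1. Of 17 measured markers of epithelium, fibroblasts, endothelium, lymphocytes and neutrophils, 3 were detected: Pecam1, Cdh5 and S100a8. S100a8, a neutrophil and monocyte gene, was at -4.44 in replicate 1 and at -5.28, -5.47 and -5.38 in replicates 2 to 4; its part in the results was not tested. The file headers place all 4 arrays on 1 slide and in 1 scan, so replicate and array position cannot be told apart.

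**Figure D1:**
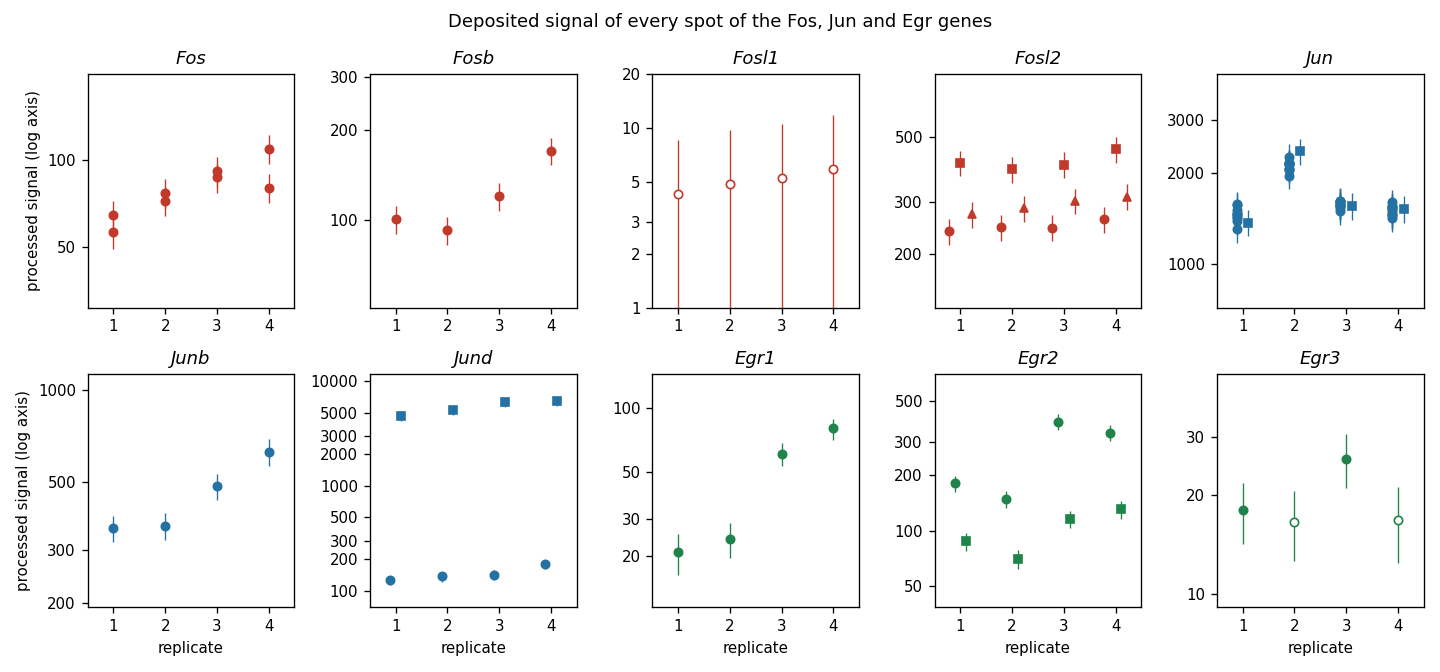
Deposited signal of every spot of the 10 genes, by replicate, on a log axis; each panel has its own axis range. Bars are the spot errors in the files, marker shapes are different probes of a gene, filled points were well above background and open points were not. Egr1 and the brighter Egr2 probe sit higher in replicates 3 and 4, Jun sits higher in replicate 2 on every spot, and Fosl1 lies within its own error.

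Egr1 and Egr2 had the widest spread between replicates of the 8 detected genes, an order that other settings turned. With normexp background correction, Jun was widest, with a range of 0.91 on the log2 scale against 0.78 for Egr2 and 0.58 for Egr1. Jun also passed Egr2 with the mean over probes (0.85 against 0.76) and without replicate 3 (0.92 against 0.90). Egr1 encodes the EGR protein induced by the broadest range of stimuli. Its single spot gave a signal of 20.8, 24.1, 60.9 and 79.9 in replicates 1 to 4, with spot errors of 4.53, 4.60, 7.50 and 9.09. Replicates 1 and 2 were low and within their errors of each other, and replicates 3 and 4 were several errors above them. On the level scale the values were -6.56, -6.36, -5.36 and -4.91, with a mean of -5.80 ± 0.79 (SD, n = 4). The highest replicate was 3.15 times the lowest, a spread wider than that of 99.7% of detected genes. In RNA from a whole culture, less RNA per cell and fewer cells with the transcript cannot be told apart.

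Egr1 was near the lower limit of the arrays in replicates 1 and 2. The 308 negative control spots of each array had a median signal between 4.03 and 4.60, and their 99th percentile lay between 9.61 and 16.3. Egr1 was above that percentile on every array. The brightest negative control spot was at 47.8 and 41.9 in replicates 1 and 2, above Egr1, and at 18.4 and 21.8 in replicates 3 and 4, below Egr1. Normexp background correction starts from the median spot signal instead of the processed one and adds an offset of 50 to every signal. With it the ratio of the highest to the lowest replicate was 1.49. The order of the extremes stayed the same, with replicate 4 highest and replicate 1 lowest, under that correction and under 5 other settings.

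Egr2, the EGR factor known from myelinating Schwann cells and from alternatively activated macrophages, was measured by 2 probes. The brighter probe gave signals of 179, 148, 386 and 337 with spot errors of 18.3, 15.3, 38.8 and 33.9. Replicates 3 and 4 were high and replicates 1 and 2 low. The levels were -3.46, -3.74, -2.69 and -2.84, a mean of -3.18 ± 0.50 (SD, n = 4), and the highest replicate was 2.07 times the lowest. The second probe ran from 70.1 in replicate 2 to 130 in replicate 4, with 87.6 and 116 in replicates 1 and 3. As levels this probe stood at -4.49, -4.82, -4.43 and -4.21, so that replicates 1 and 3 were close together once scaled. It gave a ratio of 1.53 and also had replicate 2 lowest, but replicate 4 and not replicate 3 highest. The probes disagreed by up to 0.43 in the deviation of one replicate from the mean of its probe, so the size of the Egr2 spread depends on the probe. Of the 8 detected members, 2 spanned more than 2-fold between replicates, Egr1 and Egr2, and 2.66% of all detected genes did. With the mean over probes the Egr2 ratio was 1.69 and only Egr1 passed 2-fold, and with normexp neither did. Leaving out replicate 2 or replicate 3 also left 1 member past 2-fold, with an Egr2 range of 0.75 or 0.90 on the log2 scale against 1.05 over all replicates.

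Egr3, an EGR factor studied mainly in T cells and muscle spindles, was well above background in replicates 1 and 3. Its spot gave 18.0, 16.6, 25.7 and 16.8 with errors of 3.79, 3.99, 4.77 and 4.33. The lowest signal well above background on the same arrays was 16.6, 18.0, 20.1 and 20.1, so Egr3 lay at the limit and no fold is given. It was positive and significant by Agilent's own test on all 4 arrays, and under that rule 9 of the 10 members counted as detected, against 61.7% of named genes. Egr4, the remaining EGR gene, was well above background on 0 arrays. The corepressor genes Nab1 and Nab2, whose products bind EGR proteins and dampen them, were both detected.

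**Figure D2:**
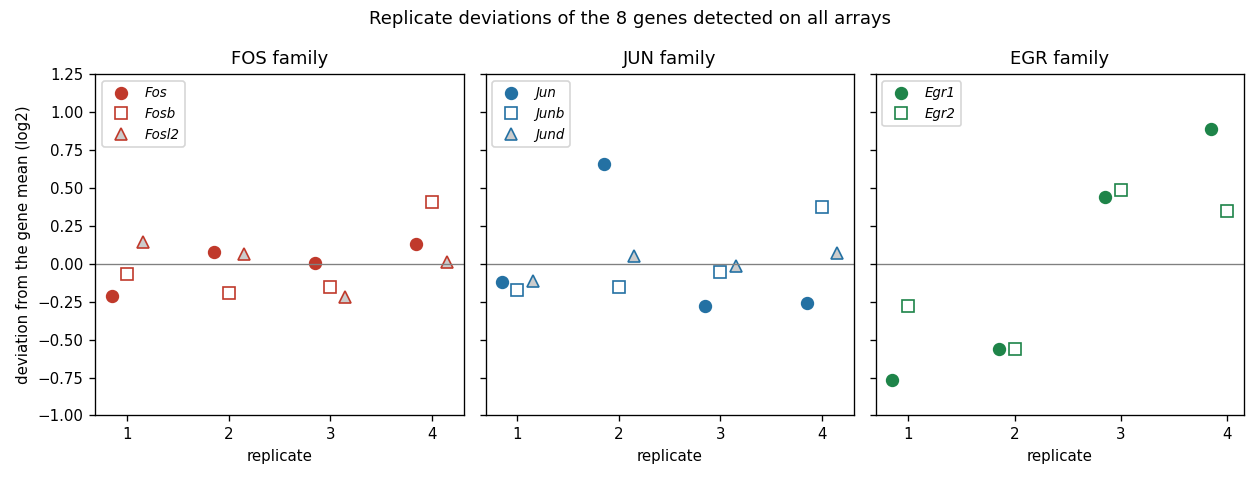
Deviation of each detected gene from its own mean over 4 replicates, on the log2 scale, by family. Egr1 and Egr2 run from -0.77 and -0.56 at their lowest to 0.89 and 0.49 at their highest, Jun stands at 0.66 in replicate 2, and the FOS genes stay between -0.22 and 0.41.

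Among the JUN genes, Jun differed most between replicates. Jun encodes c-Jun, the main target of the JNK kinases and the strongest activator of the family. One probe, printed in 10 spots, gave mean signals of 1455, 2115, 1573 and 1516 in replicates 1 to 4. Replicate 2 was high. On that array the 10 spots ran from 1961 to 2264, whereas they ran from 1303 to 1578 in replicate 1, from 1498 to 1619 in replicate 3 and, for the 9 spots not flagged as outliers, from 1450 to 1600 in replicate 4. The spots of replicate 2 therefore did not overlap with those of any other replicate. The SD of the spots on the log2 scale was 0.082, 0.057, 0.036 and 0.048, which measures the array alone, since all spots of an array received the same labelled RNA.

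The second Jun probe, in 1 spot, gave 1370, 2360, 1556 and 1522, and replicate 2 was again the highest. Because its mean was slightly above that of the other probe, it set the gene level: -0.52, 0.25, -0.68 and -0.66, a mean of -0.40 ± 0.44 (SD, n = 4). The ratio of the highest to the lowest replicate was 1.91 on this probe and 1.69 on the probe with 10 spots. The spread rested on replicate 2: without it the range over replicates was 0.24 on the log2 scale, against 0.93 with it. Replicate 2 was the highest under each of 6 other settings of scaling, background, probe choice and flags.

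**Figure D3:**
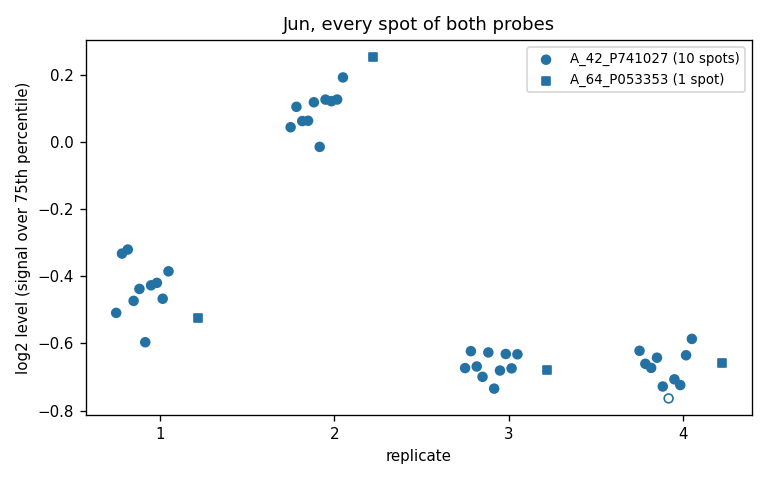
Level of every spot of the Jun probes by replicate, as log2 signal relative to the 75th percentile of the array. Circles are the probe with 10 spots, squares the probe with 1 spot, and the open circle was flagged as an outlier; the spots of replicate 2 run from -0.014 to 0.25 and all others lie at or below -0.32.

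Junb, a JUN protein that often restrains AP-1 activity, gave 352, 359, 485 and 628 with errors of 35.4, 36.0, 48.7 and 62.9. Replicate 4 was the highest. As levels these were -2.48, -2.46, -2.36 and -1.94, a mean of -2.31 ± 0.26 (SD, n = 4) and a ratio of 1.46. The signals of replicates 3 and 4 lay on arrays that were brighter altogether, and after scaling replicate 3 was within 0.12 of replicates 1 and 2. Without replicate 4 the Junb range was 0.12 on the log2 scale, against 0.55 with it.

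Jund, the JUN gene that is transcribed at a steady level in most cells, had the smallest range of the members under the setting used here. With normexp Fos was narrower (0.15 against 0.29 for Jund on the log2 scale), with median scaling Fosl2 was (0.22 against 0.36), as it was without replicate 3 (0.14 against 0.17), and without replicate 4 Junb and Fosb were (both 0.12 against 0.16). Its brighter probe gave 4650, 5236, 6288 and 6427, and levels of 1.24, 1.40, 1.33 and 1.42, with a mean of 1.35 ± 0.082 (SD, n = 4). The ratio of the highest to the lowest replicate was 1.13, a spread wider than that of 17.4% of detected genes, and without replicate 1 its range was 0.088 on the log2 scale, against 0.18 with it. The other probe, matched to another RefSeq transcript, ran from 126 to 179 with a ratio of 1.31. It also had its highest level in replicate 4, while its lowest was in replicate 3 and that of the brighter probe in replicate 1. Its range was 0.39 on the log2 scale, wider than the 0.34 of Fos and the 0.36 of Fosl2. The Jund probes disagreed by up to 0.20 in the deviation of a replicate from the mean of its probe.

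Of the FOS genes, 3 of 4 were detected, against 52.5% of all named genes. None of the 3 spanned 2-fold, and 2.66% of all detected genes did. Fos encodes c-Fos, the founding member, whose transcript is short-lived. Its probe was printed in 2 spots, which gave 64.4 and 56.5 in replicate 1, 76.7 and 72.1 in replicate 2, 91.2 and 86.8 in replicate 3, and 109 and 80.1 in replicate 4. The signals were lowest in replicate 1, and the 2 spots differed most in replicate 4. Scaled, Fos stood at -5.03, -4.73, -4.81 and -4.68, a mean of -4.81 ± 0.15 (SD, n = 4) and a ratio of 1.27, beside a median ratio of 1.26 over all detected genes. Without replicate 1 the range was 0.13 on the log2 scale, against 0.34 with it.

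Fosb, which also yields the long-lived splice form studied in the brain, gave 100.3, 92.6, 120 and 171 with errors of 10.6, 9.98, 12.7 and 17.5. Replicate 4 was the highest, and the other replicates were within their errors of one another once scaled. The levels were -4.29, -4.42, -4.38 and -3.82, with a mean of -4.23 ± 0.28 (SD, n = 4) and a ratio of 1.52. Without replicate 4 the range was 0.12 on the log2 scale, against 0.60 with it. Fosb and Junb had similar deviations, with a root mean square difference of 0.077 on the log2 scale over the 4 replicates. Of the 28 pairs of detected members, only Fos and Jund were closer, at 0.062. Both Fosb and Junb were highest in replicate 4, and without it the range of each was 0.12.

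Fosl2 encodes FRA2, an AP-1 protein without a transactivation domain of the c-Fos type. It was measured by 3 probes, which agreed within 0.089 in every deviation. The brightest gave 409, 389, 403 and 455, the next 273, 286, 303 and 313, and the third 238, 247, 245 and 263. On the level scale all 3 had their lowest value in replicate 3. The level from the brightest was -2.41 ± 0.15 (SD, n = 4) with a ratio of 1.28. Replicate 1 was the highest on this probe and replicate 2 on the other probes and with probe means, and replicate 4 was with median scaling. Without replicate 3 the range was 0.14 on the log2 scale, against 0.36 with it.

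Fosl1, which encodes FRA1 and is itself an AP-1 target, was well above background on 0 arrays. Its spot gave 4.29, 4.87, 5.29 and 5.94, with errors of 4.30, 4.89, 5.31 and 5.96 that exceeded the signals. These values lay below the 99th percentile of the negative control spots on each array, so Fosl1 was not detectable with this probe, which does not show that the gene was silent.

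Over the 8 detected members the median ratio of highest to lowest replicate was 1.49, against 1.26 over all detected genes, and the median SD was 0.27 against 0.15. This comparison was not matched for level. The SD expected at the level of a member, from the F test below, ran from 0.12 for Jund to 0.26 for Egr1. Without replicate 4 the median SD of the members was 0.17. Replicate 4 was the highest for 5 of the 8 (Fos, Fosb, Junb, Jund and Egr1), and for 24.7% of all detected genes. Replicates 1, 2 and 3 were each the highest for 1 member (Fosl2, Jun and Egr2), and for 34.6%, 24.8% and 15.9% of all detected genes. Replicate 1 was the lowest for 4 (Fos, Junb, Jund and Egr1), and for 28.5% of all detected genes. Replicates 2 and 3 were each the lowest for 2 and replicate 4 for 0, against 27.4%, 20.4% and 23.7% of all detected genes. The lowest replicate of Junb turned to replicate 2 under 4 of 6 other settings, and that of Jund to replicate 3 with probe means. The mean deviation of the 8 genes was -0.20, -0.08, 0.03 and 0.25 in replicates 1 to 4, a range of 0.44 that was 0.22 without replicate 4. For the EGR pair it was -0.52, -0.56, 0.47 and 0.62, for the JUN genes -0.13, 0.19, -0.11 and 0.06, and for the FOS genes -0.05, -0.02, -0.12 and 0.18. These means rest on 2 or 3 genes each, that of the JUN genes in replicate 2 mostly on Jun, and no difference between families was tested. Fos, Junb, Jund and Egr1, from all 3 families, had replicate 4 highest and replicate 1 lowest. For Fos the high replicate 4 rested on 1 of its 2 spots, as the other stood at -5.12, -4.78, -4.84 and -4.91. Jund stood at 1.40 and 1.42 in replicates 2 and 4, close together beside spot errors near 10% of the signal. Replicate 4 remained the highest for Egr1, Fosb and Junb under 6 other settings, and gave way to replicate 2 for Fos with normexp and for Jund under 2 of them.

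To set these spreads against those of other genes, the variance of each gene was compared with that expected at its level. The expected variance was fitted to the replicate variances of the 8713 detected genes, so it does not measure array noise alone. The comparison was an F test on limma residual variances with Benjamini-Hochberg adjustment over these genes. None of the 8 members passed (0 called, against 0.0115% of all detected genes, which is 1 gene). At an unadjusted p under 0.05 there were 3 members, against 4.3% of all detected genes. The SD was 3.43 times the expected one for Jun, 3.07 times for Egr1 and 2.67 times for Egr2, each with an adjusted p of 0.969. The other members lay between 0.66 times for Fos and 1.54 times for Junb. The spread of Jun, Egr1 and Egr2 therefore did not pass correction over all genes. How often this F test finds a true excess with 4 arrays was not measured. Another detected gene, picked from these data with an SD of 0.84 against 0.17 expected, had an adjusted p of 0.612 in this F test. Failing to pass thus does not show that the spread of a member was ordinary. Detected spots within 5 rows and columns of a spot of the 8 detected members had median deviations from -0.11 to 0.11 over the 4 arrays, and those around Egr1 from -0.03 to 0.05. Around the Fosl1 spot they ran from -0.14 to 0.21. The part of array position in the spread was not tested.

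**Figure D4:**
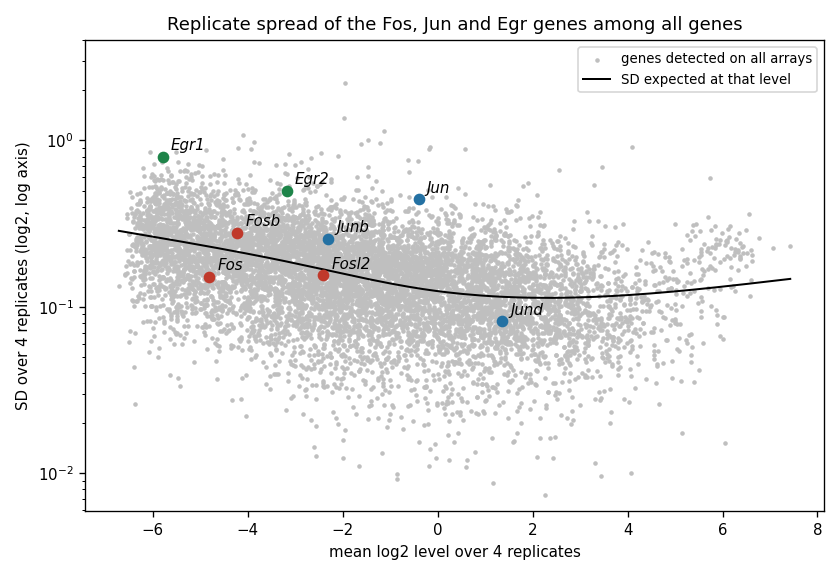
SD over 4 replicates (log2, log axis) against the mean level of each of 8713 detected genes in grey, with the SD expected at that level as a line. Egr1, Egr2 and Jun lie at 2.67 to 3.43 times the line, and Fos, Fosl2 and Jund lie below it.

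Other bZIP genes encode partners of FOS and JUN proteins or relatives of these. Of 11 measured, 9 were detected, where 52.5% of all named genes were, with a median ratio of highest to lowest replicate of 1.36. Maff, a small MAF protein, was at -3.43, -3.21, -2.16 and -2.15, high in replicates 3 and 4, with a ratio of 2.42. Atf3, a stress-induced factor that pairs with JUN, was at -0.42, 0.32, -0.42 and -0.48, high in replicate 2 alone, as Jun was, with a ratio of 1.74. Atf7, a relative of Atf2, was at -6.02, -5.28, -5.79 and -5.44, with replicate 2 the highest and a ratio of 1.67. Batf and Maf were well above background on 0 arrays.

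The median ratio of highest to lowest replicate was 1.33 over the upstream transcription factor genes and 1.30 over the MAP kinase genes, beside 1.26 over all detected genes. Of 8 measured transcription factor genes known to act on these promoters, 7 were detected, against 52.5% of all named genes. They included Srf, which encodes the serum response factor, and its partners Elk1, Elk3 and Elk4, while Mef2a was not detected. None of the 7 spanned 2-fold, and 2.66% of all detected genes did. Creb1, which encodes a factor of the cAMP response element, ran from -3.85 in replicate 1 to -3.21 in replicate 2, with a ratio of 1.56; Mef2d had a ratio of 1.55 and Elk1 of 1.41. Of 15 measured MAP kinase genes, 14 were detected, against the same 52.5%, and Map3k5 was not. None of the 14 spanned 2-fold, against the same 2.66%. Map2k7, which encodes an activator of JNK, had a ratio of 1.73, Map3k7 (TAK1) of 1.69 and Map2k6, which encodes an activator of p38, of 1.51.

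Of 22 other immediate early genes, 15 were detected, against 52.5% of all named genes, with a median ratio of 1.35, and Klf2, Nr4a3, Zfp36, Btg2, Ccn1, Arc and Plk2 were not. Rhob, a small GTPase gene, spanned 2.46-fold, at -2.16, -0.86, -2.10 and -1.67, with replicate 2 the highest. Nr4a2, an orphan nuclear receptor gene, had a ratio of 1.83 and Zfp36l1, which encodes a protein that speeds mRNA decay, of 1.70, both highest in replicate 4. Of 16 genes listed as AP-1 or EGR targets, 11 were detected, against the same 52.5%, with a median ratio of 1.44, and Il6, Ptgs2, Plau, Spp1 and Vegfa were not. Hmox1, the haem oxygenase gene, was at 3.67, 3.82, 2.72 and 2.95, high in replicates 1 and 2, with a ratio of 2.16. Tnf had a ratio of 1.72 with replicate 3 the highest, and the monocyte attractant gene Ccl2 of 1.65 with replicate 1 the highest. Of the 58 detected genes of the 6 lists, 3 spanned more than 2-fold (2.66% of all detected genes did), 0 passed the limma-based variance test over all genes (0.0115% did) and 9 had an unadjusted p under 0.05 (4.3% did).

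**Figure D5:**
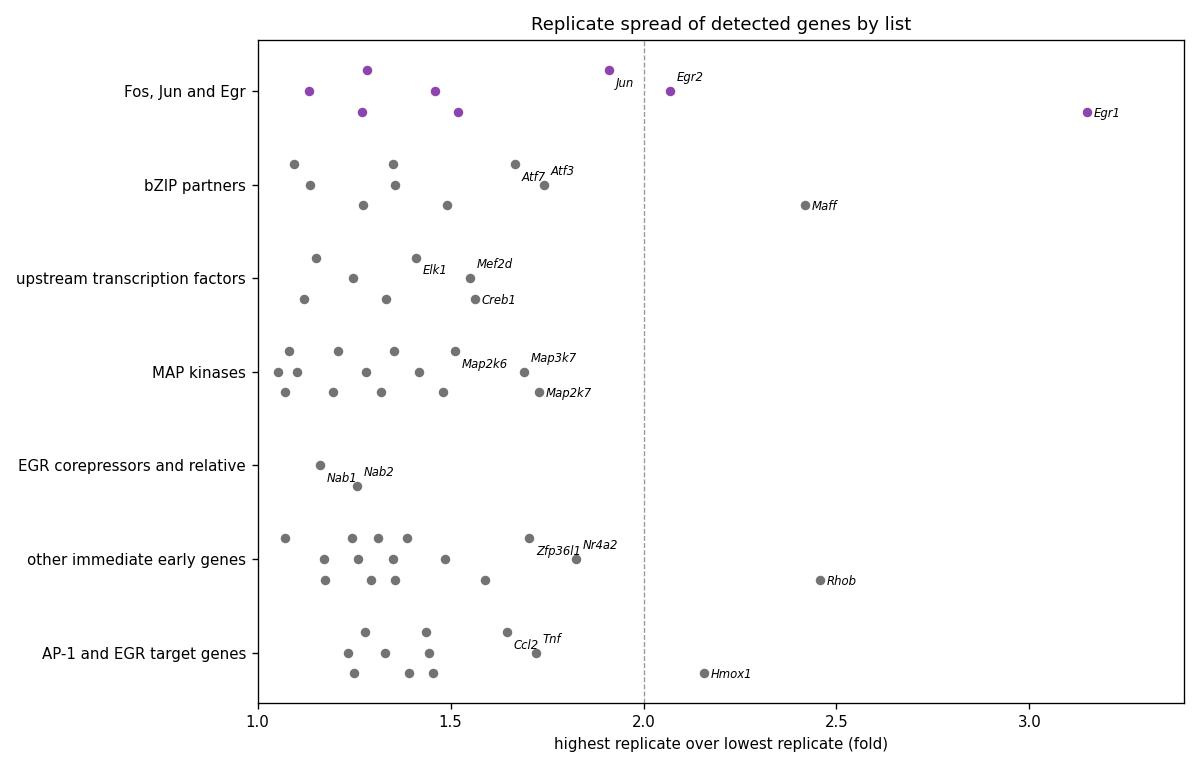
Ratio of the highest to the lowest replicate for each detected gene, one row for the Fos, Jun and Egr genes and one for each related list; the dashed line marks 2-fold. Egr1 (3.15), Rhob (2.46), Maff (2.42), Hmox1 (2.16) and Egr2 (2.07) lie past the line.

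The named genes whose 4 deviations were closest to those of Egr1, by root mean square difference on the log2 scale, were Maff (0.18), Siah2 (0.19), Irf8 (0.20), Hivep2 (0.23) and Adamts12 (0.23). The signals of Siah2, Irf8 and Adamts12 were dim, as that of Egr1 was, at mean levels of -5.24, -5.84 and -5.66. Maff and Hivep2 were brighter, at -2.74 and -4.53. Among those closest to the mean profile of the 8 members were Ankrd44 (0.0061), Pcca (0.025), Exoc6b (0.028) and Csgalnact2 (0.028). Closest to Jun, a profile chosen after its values were seen, were Styx (0.031), LOC102548672 (0.040), Hnrnph1 (0.041), Pik3r1 (0.042) and Car14 (0.052). These likenesses rest on 4 replicates and on genes picked from 8713.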

How the data were processed

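Per the labels' protocols, RNA of integrity above 7.5 was labelled with Cy3 from 100 ng. The deposited intensity of each spot is the processed signal of Agilent Feature Extraction 11.0.1.1, per the file headers and the submitters' processing notes. Whether the authors scaled arrays to each other is not stated. Of 62976 spots on an array, the 4259 control spots and outlier-flagged spots were dropped. Replicate spots were averaged on the log2 scale. Because 39.3% of probes were detected on all arrays, the 75th percentile was taken over those. Accessions were matched without versions to a RefSeq table of GRCr8, which is not the build in the file headers; 21109 of 45598 probes were named, and all 10 members matched. A gene's level came from its brightest probe, detected ones first, and it counted as detected if most spots of a probe were well above background on all 4 arrays. All 4 samples form 1 group, so no groups were compared. The variance test used limma 3.58.1 in R 4.3.3 (intercept fit, trended prior, threshold 0.05). It was first run on simulated data in which unaltered genes had exactly the expected SD. Real genes vary around that SD, so the simulation does not show how often the test finds a true excess here. Each p-value compares the spread of a gene over these 4 samples with the spread fitted to the detected genes at its level. Other work used Python 3.11.15, pandas 2.3.3 and matplotlib 3.10.9.

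Named genes are the members, the 3 detected genes with the largest range in each list, and the 5 genes with the most alike pattern; a few genes are not reported here and were left out of the lists and names. The members and lists were chosen with earlier results of these data known. Alternatives were other detection rules, scalings, normexp with an offset of 50, ignored flags, probe means, no filter, no trend and leaving out each replicate.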

Additional observations from a re-analysis of the deposited data

Results flagged for a closer look

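Of 37 sets of 4 replicate values, 3 had 1 replicate apart from the rest, judged by the gap to its nearest neighbour as a share of the range (Dixon's test). Chance alone would give about 1.85 such sets (1 in 20). The 37 sets are the levels of the 8 detected members, 5 further probes of members, the mean deviation of the members and 23 list and marker genes, those with the largest range in each list. Of the 48 other detected list and marker genes, which were not among the sets, 2 also passed, so the count depends on that choice. Jun was high in replicate 2 (share 0.8324), at 0.25 against -0.52, -0.68 and -0.66; the Jun probe with 10 spots, at 0.10 in replicate 2 against -0.44, -0.66 and -0.66, did not pass. Atf3 was high in replicate 2 (share 0.9153), at 0.32 against -0.42, -0.42 and -0.48. Nab1 was low in replicate 1 (share 0.9150), at -1.47 against -1.26, -1.27 and -1.25, a ratio of highest to lowest of 1.16.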

How the results depend on the processing

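The count of 8 detected members held with a rule of 3 of 4 arrays, with outlier flags ignored, with probe means and without each replicate, and it was 9 when Agilent's positive-and-significant call was used. The count of 2 members that spanned more than 2-fold became 0 with normexp and 1 with the mean over the probes of a gene, and ran from 1 to 2 when each replicate was left out, with 1 without replicate 2 and without replicate 3. Normexp started from the median spot signal and its local background, not from the processed signal, and added an offset of 50 to every signal. The offset by construction shrinks ratios of dim genes such as Egr1. How much of the drop came from the offset was not tested, and neither was the cause of the other changes. No member passed the variance test under any of the alternatives run, and the lowest adjusted p of a member ran from 0.240 with median scaling to 0.980 with that call (limma-based F test). Median scaling over all probes shifted the median detected gene by up to 0.16 on the log2 scale and gave Egr1 a ratio of 3.57. The median SD of members, 0.267 in the report, ran from 0.173 without replicate 4 to 0.347 with median scaling and the range of their mean deviation from 0.180 to 0.625. Of 80 recomputed ranges of single genes, 11 moved by more than 1 SD of the replicates. No range was computed for Fosl1 and Egr3, which were not detected. No paired analysis was possible because there is 1 group. Low signal over background limits Egr1, Egr3, Fos and Fosl1 most.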
